A study of Homo sapiens with 402 samples.

Results

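Cadmium at 0.025, 0.25 and 2.5 µM was examined in MCF10A, a non-tumorigenic epithelial line from human breast. The 12 libraries labelled with these doses, 4 per dose, were taken from the 402 libraries of the series, and the reference was the 15 water control libraries that carry the same plate barcode. Every group was wild type by its label and was lysed 48 h after dosing. Cadmium is labelled with water as its solvent, so the controls received the solvent and no metal, and the form of cadmium is not named. Each library came from 1 well of a 384-well plate seeded with 500 cells at passage 105, from a single cell line. The protocol calls the 4 wells of a dose biological replicates, and p-values therefore describe the spread between wells of this line. Cadmium at 25 µM was left out of the description. Its 2 libraries with the same plate barcode held 1.43 and 1.45 M counts (M, mega), of which 39.3% to 46.8% were mitochondrial. In these libraries 9.2% of all genes tested differed from the controls.

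Cadmium is a toxic metal that binds the thiol groups of proteins and can displace zinc. Metallothioneins are small cysteine-rich proteins that bind zinc, copper and cadmium, and the zinc-sensing factor MTF1 switches on their genes and the zinc exporter gene SLC30A1 through short DNA motifs called metal response elements. Thiol-reactive metals are also known to free NRF2, which drives antioxidant genes, and HSF1, which drives chaperone genes through heat shock elements, while misfolded protein in the endoplasmic reticulum (ER) raises the chaperone HSPA5 and the stress factor DDIT3.

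Replicates 1 and 2 of each dose were joined with controls 1 to 8 as a first set. Replicates 3 and 4 were joined with controls 10 to 16 as a second set. The labels do not state these sets, which follow the numbers and earlier results of these data. Total counts were 3.68 to 7.02 M at 0.025 µM, 5.39 to 10.0 M at 0.25 µM and 9.84 to 15.7 M at 2.5 µM, with medians of 5.69, 7.59 and 11.8 M, so depth was higher at the higher doses. The controls of set 1 held 12.6 to 23.9 M counts and those of set 2 held 1.93 to 5.4 M. The mitochondrial share was 10.4% to 11.4% in the controls of set 1 and 7.87% to 9.1% in those of set 2, against 8.25% to 11.3% over the 12 cadmium libraries. All 8 markers of basal mammary cells were detected in every group, with a summed level of 2460 to 3350 CPM (reads scaled to a common library size), and the 10 luminal markers summed to 977 to 1290 CPM, although PGR and KIT among them had 0 counts in all of these groups. The immune markers CD3E and CD68 and the endothelial marker CDH5 had 0 counts as well. The summed level of the 4 listed immune markers of 5 differed between the sets, at 52.2 to 80.4 CPM in set 1 and 22.8 to 42.8 CPM in set 2. That of the fibroblast markers did likewise, at 98.9 to 139 CPM and 23 to 66.8 CPM; the part of either list in the results was not tested. With CD3E and CD68 at 0, the immune sum came from the other listed markers. The wells held a single cell line, so the sums describe the listed genes and not shares of cell types. Bulk RNA also cannot tell fewer cells from less RNA per cell.

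Few genes were called at the lower doses and more at 2.5 µM, in counts that moved with the fit. Depth also rose with dose, and its part in these counts was not tested. Each dose was compared with the controls in 1 model with a term for the set, and genes counted as called below an adjusted p of 0.05 (edgeR's quasi-likelihood test with Benjamini-Hochberg adjustment over 24295 genes). At 0.025 µM 3 genes were called (0.0123% of those tested), all higher: FOS, IER3 and NAP1L1. At 0.25 µM 3 genes were called as well (0.0123%): MT1X and FOS were higher (0.00823%) and MCOLN1 was lower (0.00412%). At 2.5 µM 136 genes were called (0.56%), 88 higher (0.362%) and 48 lower (0.198%). The genes tested passed a filter over all 93 fitted libraries, so some were absent from the groups described here. With only the compared groups in the fit, 14910 genes were tested at 2.5 µM and 143 called (0.959%), 99 higher and 44 lower. DESeq2 split its 137 calls at 2.5 µM into 61 higher and 76 lower, and called 106 genes at 0.025 µM (28 higher, 78 lower) and 22 at 0.25 µM (8 higher, 14 lower). Without the set term the counts were 0, 1 and 57 for the 3 doses in rising order.

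Metallothionein genes rose at 2.5 µM, and MT1X at 0.25 µM too. Of the 11 listed genes 8 passed the filter on low counts, and 5 of these 8 rose at 2.5 µM: MT1X, MT1F, MT1E, MT1B and MT2A. Beside this, 0.362% of all genes tested rose. The median log2 fold change of the 8 was 1.48, and the same with MT1B at the bound given below for it, beside -0.01 over all genes tested. MT1A and MT1H had 0 counts in the controls and in the 12 cadmium libraries, so they passed the filter only through other groups in the fit. Their values in the median do not describe these groups. MT1B had 0 counts in the controls and could pass only through dosed groups, so its rise adds no separate support. Metallothionein genes resemble each other closely, so reads may have been split between them or lost, and the share of each is uncertain.

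MT1X was between 74.5 and 103 CPM in the controls of set 1 (median 96.1) and between 10.7 and 30.7 CPM in those of set 2 (median 18.6). It stood at 82.5, 108, 35.8 and 28.2 CPM in replicates 1 to 4 at 0.025 µM, at 165, 152, 44.8 and 75.1 CPM at 0.25 µM and at 516, 492, 101 and 172 CPM at 2.5 µM. All 4 libraries at 0.25 µM and all 4 at 2.5 µM lay above every control of their own set. The log2 fold change was 0.19 ± 0.20 (SE) at 0.025 µM, 0.98 ± 0.16 at 0.25 µM (adjusted p = 0.00031) and 2.43 ± 0.13 at 2.5 µM (adjusted p = 3.26e-33). The call at 0.25 µM was lost without the set term (adjusted p = 1) and without replicate 4 (adjusted p = 0.169), and the log2 fold change was then 0.67 and 0.75. It was lost as well against controls 1 to 8 alone, where MT1X was 0.15 (adjusted p = 0.997), against controls 10 to 16 alone (2.46, adjusted p = 0.165) and with the replicate block (0.04, adjusted p = 1). Only MT1X, of the metallothioneins, was called at 0.25 µM.

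MT1F was called at 2.5 µM alone. It was at 20.4, 12.9, 6.2 and 6.27 CPM at 0.025 µM and at 14.9, 13.4, 4.62 and 12.7 CPM at 0.25 µM, where the controls spanned 11.1 to 23.9 CPM in set 1 and 0.254 to 7.56 CPM in set 2. At 2.5 µM it reached 157, 191, 21.3 and 36.6 CPM, above all controls of the same set, with a log2 fold change of 3.03 ± 0.17 (adjusted p = 3.58e-30). MT1E was at 1100 to 1340 CPM in the controls of set 1 and 343 to 604 CPM in those of set 2, and at 2660, 2670, 982 and 1180 CPM at 2.5 µM. Its groups did not overlap within a set and its log2 fold change was 1.15 ± 0.11 (adjusted p = 1.17e-15), with 14 of 16 alternatives keeping the call and a lowest value of 0.41. At 0.25 µM MT1E stood at 1610, 1450, 642 and 934 CPM, also above the controls of each set, and missed the threshold with a log2 fold change of 0.52 ± 0.11 (adjusted p = 0.0656).

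MT2A gave a small difference that depended on the comparator. Its 4 libraries at 2.5 µM were at 11100, 11100, 6010 and 6650 CPM, against 7830 to 10600 CPM in the controls of set 1 and 3030 to 4880 CPM in those of set 2. Each lay above its set's controls, and the log2 fold change was 0.42 ± 0.09 (adjusted p = 0.00451). Against controls 1 to 8 alone, in place of the controls of the same set, it was -0.12 (adjusted p = 0.911), and against the other metals at 0.025 µM it was 0.12 (adjusted p = 0.732). The libraries dosed with mercury, copper or arsenic at 2.5 µM reached 9480 to 12800 CPM in set 1, which cadmium's libraries in that set did not exceed. MT1B had 0 counts in the 15 controls and in the 4 libraries at 0.025 µM, 14 counts in all at 0.25 µM and 134 at 2.5 µM. Against a floor of 3 counts summed over the controls, MT1B was at least 172-fold higher at 2.5 µM. MT1G was at 2.48, 4.61, 0.485 and 0.905 CPM at 2.5 µM, with controls between 0 and 1.27 CPM, and was not called (log2 fold change 1.81 ± 0.54, adjusted p = 0.112).

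**Figure D1:**
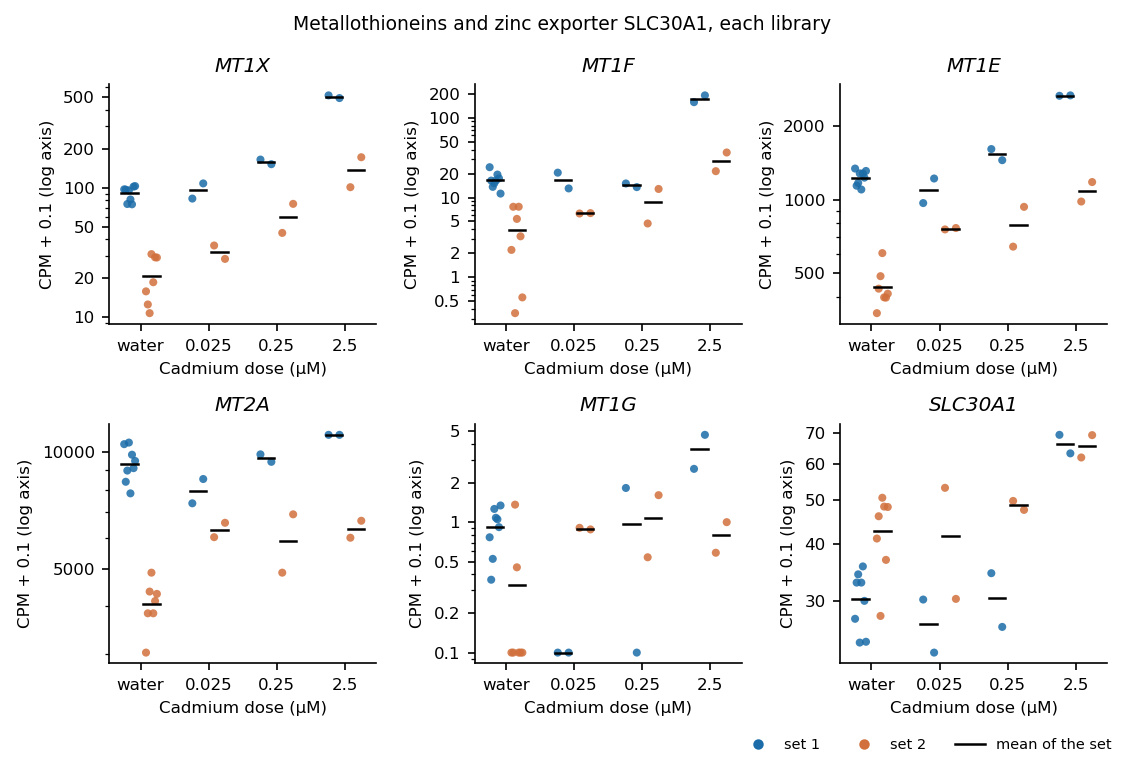
CPM plus 0.1 on a log axis for 5 metallothionein genes and SLC30A1 in each library, by cadmium dose (µM); points are libraries, blue for set 1 and orange for set 2, and bars are the mean of a set. MT1X at 2.5 µM lies at 492 and 516 CPM in set 1 and at 101 and 172 CPM in set 2, above the controls of each set, and the controls of set 2 sit below those of set 1 in MT1X, MT1F, MT1E and MT2A.

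SLC30A1 exports zinc from the cell. It was at 24.2 to 35.6 CPM in the controls of set 1 and 27.7 to 50.4 CPM in those of set 2. At 2.5 µM its libraries were at 69.3, 63.1, 61.8 and 69.2 CPM, all above every control, and the log2 fold change was 0.89 ± 0.12 (adjusted p = 1.92e-08). At 0.025 and 0.25 µM its log2 fold changes were -0.02 and 0.17, not called. Of the 26 measured genes of zinc and cadmium transport, SLC30A1 and the export pump gene ABCC2 rose at 2.5 µM and none fell. Over all genes tested 0.362% rose and 0.198% fell. The median log2 fold change of the list was 0.02. ABCC2 was at 36.1, 37.6, 22.1 and 24.2 CPM, against 15.5 to 25.7 and 6.89 to 26.4 CPM in the controls, so that it overlapped the controls in set 2 (log2 fold change 0.68 ± 0.16, adjusted p = 0.0142). Only 7 of 16 alternatives kept the call on ABCC2, with log2 fold changes from 0.33 to 0.86, and it was lost without replicate 1, 2 or 4.

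The windows of 250 bases before the start of 19 genes, all called at 2.5 µM except MT1G, were searched for motifs of the known metal, heat shock and ER stress factors. From those that hold a match to the motif of their own family, 5 were picked to be shown. Windows come from RefSeq on GRCh38.p14, and 14 of the 19 genes had one; MT1F, MT1E, MT1G, CRYAB and HMOX1 did not. Capitals mark matches on either strand, and a match is a description of letters, not a bound site. The metal response element core was searched as TGCGCNC and TGCACNC. MT1X (chr16:56682220-56682469, plus strand) held 4 matches, MT2A (chr16:56608334-56608583, plus strand) held 7 and SLC30A1 (chr1:211579162-211579411, minus strand) held 1, where 28.5% of 27305 symbols held at least 1 of either form. HSPA6 (chr1:161524290-161524539, plus strand) held 2 matches to a pair of heat shock repeats, GAANNTTC, which 7.05% of symbols held. One of these lay inside a run of 3 repeats (the same repeats with 2 free bases between them, on either strand), which 0.557% held. HSPA5 (chr9:125241344-125241593, minus strand) held 1 match to the ER stress response element, which 0.0916% held. HSPA1A, HSPA1B and DNAJB1, not shown, held GAANNTTC too, while BAG3, HSPH1 and ZFAND2A held no heat shock match and HERPUD1 held no ER stress match. The metal response element core also occurred before DNAJB1, BAG3, DDIT3 and GCLM, which are in other families.
MT1X: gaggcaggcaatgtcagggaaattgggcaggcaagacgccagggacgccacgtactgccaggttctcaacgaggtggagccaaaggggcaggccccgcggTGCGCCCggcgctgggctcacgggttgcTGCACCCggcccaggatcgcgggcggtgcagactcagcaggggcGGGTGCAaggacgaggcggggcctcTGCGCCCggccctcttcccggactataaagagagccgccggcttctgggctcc
MT2A: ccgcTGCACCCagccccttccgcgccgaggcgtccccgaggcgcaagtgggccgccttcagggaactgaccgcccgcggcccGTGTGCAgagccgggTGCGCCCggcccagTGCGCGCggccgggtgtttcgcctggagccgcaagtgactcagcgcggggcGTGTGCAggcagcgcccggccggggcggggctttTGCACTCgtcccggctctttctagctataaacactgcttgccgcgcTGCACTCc
SLC30A1: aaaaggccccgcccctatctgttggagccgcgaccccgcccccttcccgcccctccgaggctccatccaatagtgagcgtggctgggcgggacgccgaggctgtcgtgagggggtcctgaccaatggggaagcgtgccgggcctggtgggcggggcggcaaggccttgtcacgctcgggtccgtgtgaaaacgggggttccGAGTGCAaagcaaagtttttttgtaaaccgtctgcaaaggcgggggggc
HSPA6: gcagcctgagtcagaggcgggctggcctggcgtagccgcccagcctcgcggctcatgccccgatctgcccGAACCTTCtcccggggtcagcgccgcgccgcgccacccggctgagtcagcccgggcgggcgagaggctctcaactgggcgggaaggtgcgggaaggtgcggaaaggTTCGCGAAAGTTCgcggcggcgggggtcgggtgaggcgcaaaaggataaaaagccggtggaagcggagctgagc
HSPA5: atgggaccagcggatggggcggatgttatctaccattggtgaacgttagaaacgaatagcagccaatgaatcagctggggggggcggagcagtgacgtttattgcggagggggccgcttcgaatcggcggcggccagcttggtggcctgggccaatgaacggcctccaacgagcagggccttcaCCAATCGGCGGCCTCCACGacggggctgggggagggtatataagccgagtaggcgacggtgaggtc

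Chaperone genes of the heat shock list rose at 2.5 µM and not below. Of the 30 measured members 10 rose and none fell, beside 0.362% and 0.198% of all genes tested. The 10 included HSPA6, CRYAB, HSPA1A, HSPA1B, DNAJB1, HSPH1, BAG3, DNAJA1 and HSPB1. Of the 30, 5 lay above the controls of the same set in both sets, beside 0.383% of all genes tested. The median log2 fold change of the list was 0.23, with 28 of the 30 positive, and no member was called at 0.025 or 0.25 µM. HSPA6 is a strictly inducible HSP70. It was at 0 to 0.849 CPM in the controls of set 1 and 0 to 3.67 CPM in those of set 2, at 0.279, 0, 0 and 1.57 CPM at 0.025 µM and at 3.28, 0.446, 0 and 1.52 CPM at 0.25 µM. At 2.5 µM it was at 111, 200, 21.6 and 70.3 CPM, and the log2 fold change was 7.57 ± 0.30 (adjusted p = 4.62e-48). CRYAB, a small heat shock protein, stood at 37.9, 28.8, 8.79 and 24.8 CPM where no control exceeded 2.87 CPM (log2 fold change 6.68 ± 0.37). Neither gene's libraries at 2.5 µM overlapped the controls.

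HSPA1A, the main inducible HSP70, was at 127, 169, 34.3 and 83 CPM at 2.5 µM, against 15.5 to 20.6 CPM in the controls of set 1 and 11.6 to 48.8 CPM in those of set 2. Its libraries cleared the controls in set 1, and 1 of the pair overlapped them in set 2. The log2 fold change was 2.31 ± 0.18 (adjusted p = 8.05e-20). HSPA1B, a near-identical neighbour whose reads can hardly be told from those of HSPA1A, had a log2 fold change of 2.17 ± 0.22. DNAJB1, the HSP40 partner of HSP70, was at 336, 511, 177 and 250 CPM against 110 to 140 and 157 to 216 CPM in the controls, with a log2 fold change of 1.18 ± 0.10 (adjusted p = 4.86e-17). BAG3, an HSP70 co-chaperone, had 0.95 ± 0.09 and HSPH1, an HSP110, had 0.75 ± 0.09. ZFAND2A, an arsenite-inducible zinc finger gene outside the list, was at 108, 127, 13.9 and 50.9 CPM with controls between 0.315 and 10.5 CPM (log2 fold change 3.27 ± 0.19, adjusted p = 7.18e-29). The constitutive members HSPA8 and HSP90AA1 were not called, with 0.18 ± 0.06 (adjusted p = 0.161) and 0.26 ± 0.08 (adjusted p = 0.0961).

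**Figure D2:**
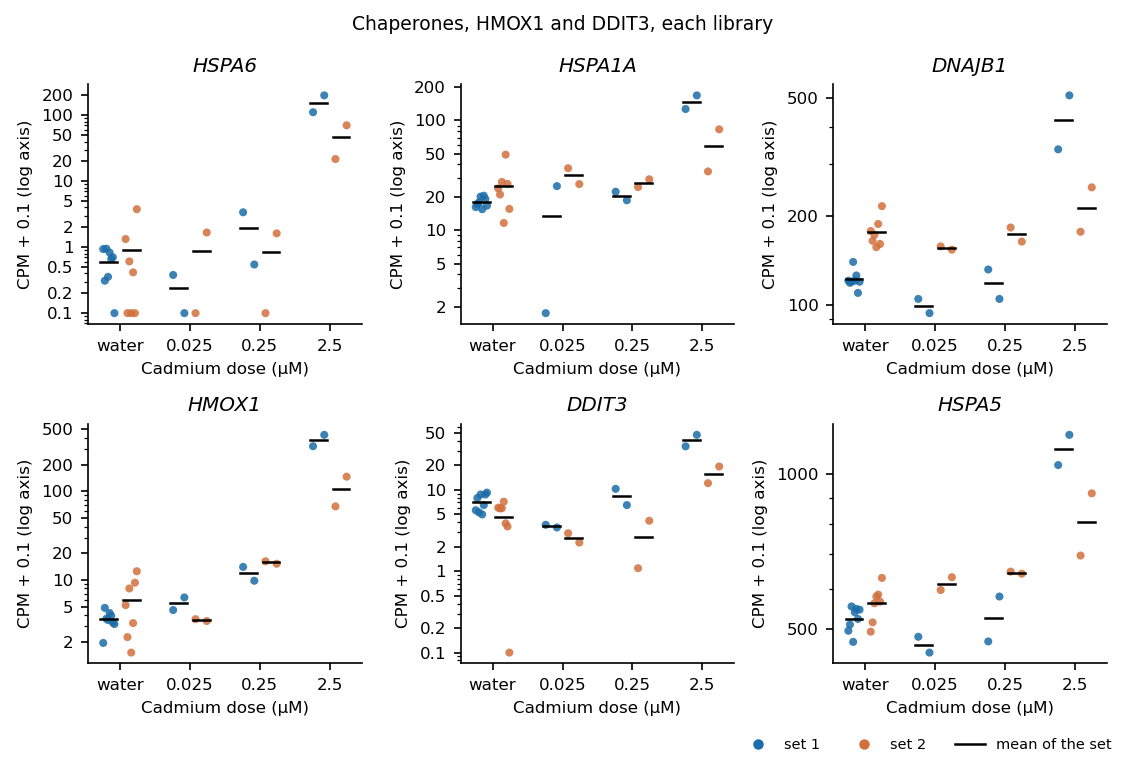
CPM plus 0.1 on a log axis for 3 heat shock genes, HMOX1, DDIT3 and HSPA5 in each library, by cadmium dose (µM); points are libraries, blue for set 1 and orange for set 2, and bars are the mean of a set. HSPA6 lies between 21.6 and 200 CPM at 2.5 µM, above the highest control at 3.67 CPM, while DNAJB1 at 2.5 µM overlaps the controls in set 2.

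HMOX1 encodes heme oxygenase, which breaks heme down to biliverdin, iron and carbon monoxide. It was at 1.84 to 4.73 CPM in the controls of set 1 (median 3.48) and 1.41 to 12.4 CPM in those of set 2 (median 5.08). At 0.025 µM it stood at 4.46, 6.23, 3.5 and 3.33 CPM, at 0.25 µM at 13.9, 9.67, 16.1 and 15.1 CPM and at 2.5 µM at 322, 433, 67.4 and 146 CPM. All 4 libraries at 0.25 µM lay above the controls of their set, and the log2 fold change of 2.0 ± 0.47 did not pass the threshold (adjusted p = 0.161). A total of 22 genes (0.0906% of those tested) were higher than all controls of the same set in this way at that dose, and 8 (0.0329%) were lower. At 2.5 µM the log2 fold change was 5.99 ± 0.23 (adjusted p = 5.65e-46).

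NRF2 targets rose at 2.5 µM by far smaller factors than HMOX1. Of the 34 measured members 13 rose at 2.5 µM and none fell, beside 0.362% and 0.198% of all genes tested. Of the 34, 33 had a positive log2 fold change, and the median was 0.30. FTL, the ferritin light chain that stores iron, was at 2290, 2490, 1650 and 1920 CPM against 1370 to 1730 and 922 to 1220 CPM in the controls, above them in both sets (log2 fold change 0.66 ± 0.08, adjusted p = 1.21e-09). FTH1, the heavy chain, was not called (0.03 ± 0.08, adjusted p = 0.982); ferritin genes have processed pseudogenes that can share their reads. AKR1C2, a ketosteroid reductase, was at 993, 1020, 509 and 518 CPM against 614 to 770 and 181 to 298 CPM (0.70 ± 0.11, adjusted p = 6.6e-06), and it shares sequence with AKR1C1 and AKR1C3. ALDH3A1, an aldehyde dehydrogenase, was at 177, 180, 206 and 203 CPM against 90.3 to 130 and 86 to 156 CPM (0.84 ± 0.13, adjusted p = 1.77e-06). All 4 libraries of AKR1C2 and ALDH3A1 lay above the controls of their set.

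Among the enzymes of glutathione metabolism only GCLM, the regulatory subunit of glutamate-cysteine ligase, rose of 22 measured (0.56 ± 0.10, adjusted p = 0.00031), and its range in set 2 overlapped the controls. The thioredoxin reductase gene TXNRD1 (0.48 ± 0.10) and the quinone reductase gene NQO1 (0.34 ± 0.07) rose as well. The cystine transporter gene SLC7A11 was not called (0.55 ± 0.20, adjusted p = 0.31). Of 14 iron handling genes 2 rose, HMOX1 and FTL, and none fell. Beside the counts of both lists, 0.362% of all genes tested rose and 0.198% fell.

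ER chaperones rose modestly at 2.5 µM. Of 20 measured genes 7 rose and none fell, beside 0.362% and 0.198% of all genes tested. The 7 were HSPA5, HERPUD1, HSP90B1, MANF, DNAJB9, DNAJC3 and CALR, and the median log2 fold change of the list was 0.27. HSPA5, the ER-resident HSP70 also called BiP, was at 1040, 1190, 695 and 917 CPM against 473 to 554 and 495 to 629 CPM in the controls. Its groups did not overlap in either set, and the log2 fold change was 0.83 ± 0.09 (adjusted p = 3.61e-13). HERPUD1, part of ER-associated degradation, had 1.01 ± 0.11 (adjusted p = 4.68e-12), HSP90B1, the ER-resident HSP90, had 0.43 ± 0.06 (adjusted p = 1.66e-07) and MANF, a secreted ER stress protein, had 0.45 ± 0.10 (adjusted p = 0.00442).

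DDIT3, the transcription factor CHOP, was at 34.2, 47.4, 12 and 19.3 CPM at 2.5 µM against 4.89 to 9.16 and 0 to 7.05 CPM in the controls. All 4 libraries exceeded every control, and the log2 fold change was 2.15 ± 0.21 (adjusted p = 1.02e-14). PPP1R15A, which directs dephosphorylation of the initiation factor eIF2 alpha, was at 59.2, 102, 31.2 and 63.9 CPM against 12 to 21.1 and 8.81 to 27 CPM (1.88 ± 0.15, adjusted p = 8.88e-19), also without overlap. Of 26 measured ATF4 targets, DDIT3 and ATF3 rose and none fell, beside 0.362% and 0.198% of all genes tested. The median log2 fold change of the list was 0.07. ATF3, a stress-inducible transcription factor, was at 6.06, 5.33, 0.91 and 2.34 CPM with controls of set 2 reaching 2.59 CPM (2.64 ± 0.53, adjusted p = 0.000992), so it overlapped there. Its call was lost in set 2 alone (adjusted p = 0.945) and without replicate 1 (adjusted p = 0.128).

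Further genes with large differences at 2.5 µM were scarce transcripts. RRAD, a small GTPase, was at 16.8, 27.4, 3.46 and 29.9 CPM with controls up to 2.63 CPM in set 1 and 0.315 CPM in set 2 (log2 fold change 3.83 ± 0.30, adjusted p = 2.89e-23). GADD45G, a growth arrest gene, was at 4.41, 16.3, 3.34 and 8.44 CPM with controls up to 0.691 and 4.6 CPM (4.89 ± 0.53, adjusted p = 1.46e-13), and 1 of its libraries in set 2 overlapped the controls. ARC, an activity-regulated gene best known in neurons, was at 1.65, 4.41, 0.91 and 14.8 CPM with controls up to 0.511 CPM (5.78 ± 0.68, adjusted p = 1.07e-09). The noncoding LINC00520 was at 3.67, 0, 1.64 and 2.64 CPM (3.61 ± 0.82, adjusted p = 0.00792), so that 1 library at 2.5 µM held none. Of 16 alternatives 9 kept the call on LINC00520, which was lost with DESeq2 (adjusted p = 0.665), without replicate 1 (adjusted p = 0.215), without replicate 4 and in each set alone. Of the 88 genes that rose 31 averaged under 2 on the log2 CPM scale over all 93 fitted libraries, groups not described here included. Of the same 88 genes, 46 lay above the controls of the same set in both sets, beside 93 of all genes tested (0.383%).

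Genes that fell at 2.5 µM did so by smaller factors. The median size of the log2 fold change was 0.59 for the 48 lower genes and 1.72 for the 88 higher ones. Falls are named for called genes averaging 2 or more in log2 CPM over all 93 fitted libraries, with the same sign in both sets. The largest of these were those of CHST2 (-2.07 ± 0.55, adjusted p = 0.0496), USP43 (-1.73 ± 0.46), SLC2A6 (-1.36 ± 0.34), RAVER1 (-1.13 ± 0.26) and ZNF598 (-1.10 ± 0.28). MTSS2 (-1.03 ± 0.21, adjusted p = 0.00122), TM9SF1 (-0.95 ± 0.24), DVL1 (-0.93 ± 0.21), ZNF414 (-0.91 ± 0.24) and TET2 (-0.88 ± 0.23) followed. CHST2, a sulfotransferase gene, was at 1.01, 1.23, 1.46 and 0.98 CPM with controls at 3.49 to 7 CPM in set 1 and 0 to 6.61 CPM in set 2, so it overlapped in set 2. MTSS2 was at 6.98, 10.6, 7.28 and 10.9 CPM against 15.1 to 20.5 and 10.7 to 24.2 CPM. DVL1, a Wnt signalling protein, was at 11, 12.6, 13.5 and 13 CPM and lay below the controls in both sets (16.9 to 26.3 and 15.2 to 30.3 CPM).

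Of the 48 lower genes 4 lay below the controls of the same set in both sets, beside 15 of all genes tested (0.0617%). 41 were also called in set 1 alone and 0 in set 2 alone, where 2 genes were lower in all. Without the set term 7 of the 48 were called, without replicate 1 it was 3, and without replicates 2, 3 and 4 it was 17, 35 and 13. The longest annotated transcript of the lower genes had a median GC content of 60.1% (46 of 48 with a value), against 47.9% over all genes tested and 50.9% in the 88 higher genes; the part of base composition in these calls was not tested. Of the 88 higher genes 52, 51, 80 and 65 were called when replicates 1 to 4 were left out in turn.

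Most other gene groups held no called member at 2.5 µM. With 0.56% of all genes called, lists of this size would mostly hold none, so this does not show that a list was unchanged. None was called among 24 p53 targets, 20 DNA repair genes, 28 mitosis genes, 32 DNA replication genes, 11 genes of fatty acid synthesis, 23 inflammatory cytokine genes or 22 interferon-stimulated genes. The same held for 32 adhesion and matrix genes, 10 estrogen targets, 23 genes of hypoxia and glycolysis, 27 proteasome genes and 15 mitochondrially encoded genes. Their median log2 fold changes ran from -0.10 for estrogen targets to 0.17 for hypoxia and glycolysis. Values were positive for 22 of 23 genes of hypoxia and glycolysis and for 23 of 27 proteasome genes. The other lists without a call were more even, at most 13 of 22 positive in the interferon-stimulated genes. In sterol synthesis 1 of 23 genes was called: LSS, lanosterol synthase, fell (-0.43 ± 0.10, adjusted p = 0.0124). In squamous differentiation 1 of 24 was called, S100A7, which was at 9.46, 0.615, 0 and 0 CPM, so that its call (3.32 ± 0.73, adjusted p = 0.007) rested on replicate 1.

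**Figure D3:**
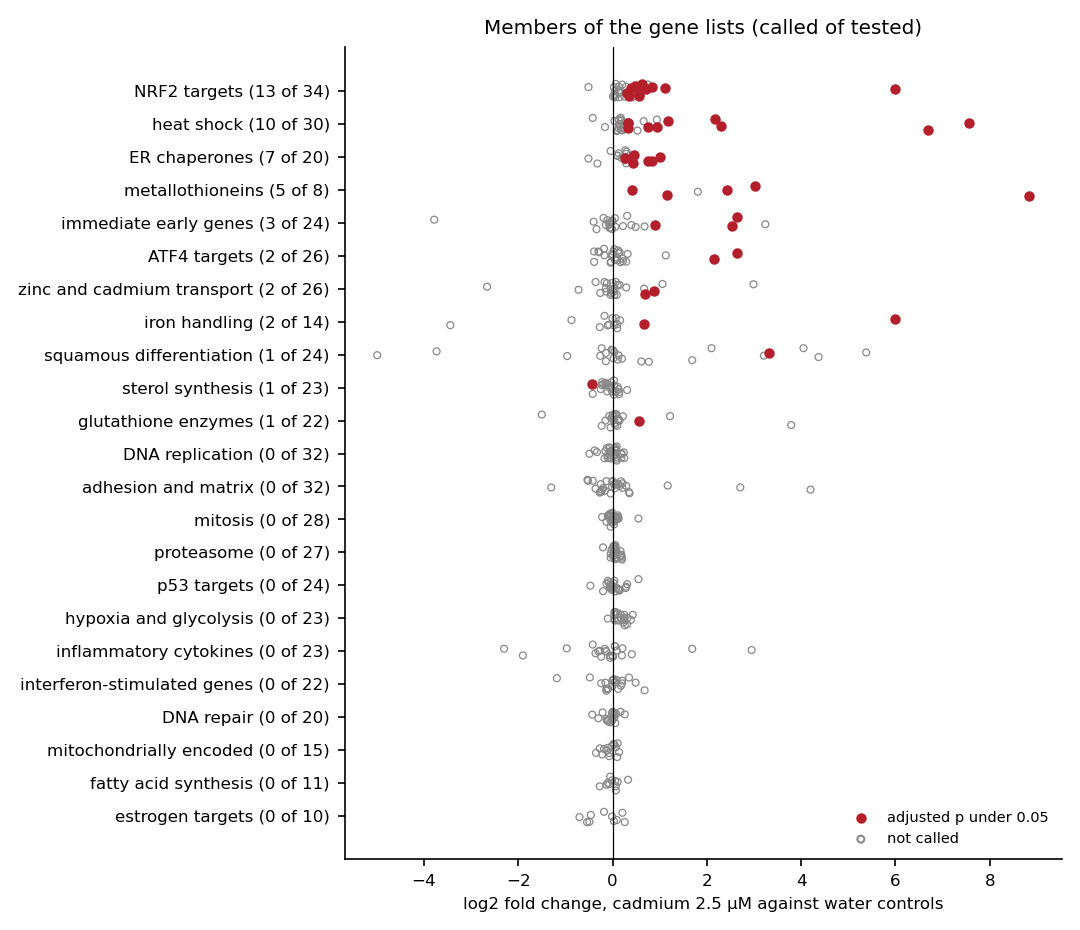
Log2 fold change at cadmium 2.5 µM against the water controls (horizontal axis) for the measured members of 23 gene lists (rows); red points passed an adjusted p of 0.05 and open points did not, and the number called of those tested stands beside each name. Of 518 memberships 4 with a standard error over 5 are not drawn; called points lie to the right of 0 except that of LSS in sterol synthesis.

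Among immediate early genes FOS was called higher at all 3 doses, with calls that depended on the controls used. FOS, a subunit of the AP-1 transcription factor, was at 40.2 to 65.6 CPM in the controls of set 1 and 6.87 to 17.4 CPM in those of set 2. It was at 107, 171, 41.6 and 43.5 CPM at 0.025 µM, 99.8, 101, 56.6 and 43.2 CPM at 0.25 µM and 61.3, 61.1, 55 and 64 CPM at 2.5 µM. The libraries of the 2 lower doses lay above the controls of their set, as did those of 21 genes in all at 0.025 µM (0.0864%, with 21 below them, 0.0864%), whereas at 2.5 µM those of set 1 lay within them. The log2 fold changes were 1.31 ± 0.19 (adjusted p = 5.95e-06), 1.08 ± 0.18 (adjusted p = 0.000434) and 0.90 ± 0.17 (adjusted p = 0.000334) in order of dose. Without replicate 2 the call at 0.025 µM was lost (0.99, adjusted p = 0.413), and without the set term the calls at 0.025 and 0.25 µM were (adjusted p = 0.921 and 1). Against controls 1 to 8 alone FOS was called at no dose (0.67, 0.40 and 0.18), and with the replicate block it was not called at 0.25 µM (0.50, adjusted p = 0.315). At 2.5 µM 11 of 16 alternatives kept the call, which was lost without the set term, in set 1 alone, without replicate 4 and with the block. In set 2 the libraries dosed with mercury at 2.5 µM were at 28.1 and 26.2 CPM, also above that set's controls.

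IER3, an early response gene, was at 95.1, 164, 157 and 149 CPM at 0.025 µM against 72.8 to 90.6 and 55.8 to 110 CPM in the controls (0.70 ± 0.13, adjusted p = 0.00505), and it was not called at 0.25 µM (0.36 ± 0.13) or 2.5 µM (0.31 ± 0.12). Its call was lost without replicate 2 (adjusted p = 1) and without replicate 4 (adjusted p = 0.297), without the set term (adjusted p = 0.112) and against either block of controls alone (adjusted p = 0.13 and 0.277). Against the other metals at 0.025 µM IER3 was 0.24 (adjusted p = 0.797). NAP1L1, a histone chaperone, was at 516, 542, 370 and 419 CPM against 348 to 409 and 315 to 398 CPM and overlapped the controls in set 2 (0.29 ± 0.06, adjusted p = 0.0448). Leaving out replicate 1, 2 or 4 ended its call (adjusted p = 0.646, 1 and 0.402). MCOLN1, a lysosomal cation channel, was at 9.85, 10.7, 14.4 and 14.6 CPM at 0.25 µM, below every control of its set (20.6 to 32.9 and 16.4 to 33.6 CPM), with a log2 fold change of -1.0 ± 0.20 (adjusted p = 0.0188). It was -0.06 at 0.025 µM and -0.34 at 2.5 µM, neither called, and leaving out any 1 replicate at 0.25 µM ended the call (adjusted p from 0.083 to 0.255). Of the 24 immediate early genes FOS, ATF3 and FOSB were called at 2.5 µM, all higher, beside 0.362% of all genes tested. The median log2 fold change of the list was -0.01.

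The sets were next compared with each other at 2.5 µM, since they share no library. In set 1 alone 443 genes were called (2.04% of 21703), 165 higher and 278 lower, and in set 2 alone 41 (0.201% of 20365), 39 higher and 2 lower. In both 24 were called, which is 5.42% of the first list and 58.5% of the second, and 22 of these were higher in both sets. They included HSPA6, CRYAB, HSPA1A, BAG3, ZFAND2A, HMOX1, FTL, AKR1C2, AKR1C3, MT1X, MT1F, MT1E, HSPA5, HSP90B1, PPP1R15A, RRAD and ARC. DUS1L and PPP1R14B were called in opposite directions. Depth differed between the sets, as given above, and its part in the difference of the counts was not tested.

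The difference between the sets in the effect of 2.5 µM was itself tested, and 93 genes passed (0.383%), 77 with a higher value in set 2 and 16 with a lower one (0.0659%). With RLE scaling the split was 54 and 28. HMOX1 and 5 of the 30 heat shock genes (DNAJB1, HSPH1, HSPA1A, HSPA1B and BAG3) had a lower value in set 2, while HSPA6 (adjusted p = 0.833) and CRYAB (adjusted p = 0.522) did not pass. DNAJB1 had a log2 fold change of 1.79 ± 0.09 in set 1 and 0.28 ± 0.11 in set 2, and the difference was -1.51 ± 0.15 (adjusted p = 3.34e-13). For HSPA1A the values were 3.04 ± 0.14 and 1.18 ± 0.26 (difference adjusted p = 4.42e-05), for HSPH1 1.22 and 0.17 (adjusted p = 4.59e-06) and for HMOX1 6.73 ± 0.12 and 4.24 ± 0.28 (adjusted p = 0.00146). The metallothioneins showed no such difference that passed: MT1X had 2.49 ± 0.10 and 2.80 ± 0.24 (adjusted p = 0.968) and MT1E 1.12 ± 0.09 and 1.31 ± 0.16 (adjusted p = 1). FTL was at 0.66 ± 0.06 and 0.68 ± 0.10 (adjusted p = 1). FOS went the other way, with 0.22 in set 1 and 2.27 in set 2 (adjusted p = 7.45e-06). The 77 genes with a higher value in set 2 had a median transcript GC content of 59%.

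**Figure D4:**
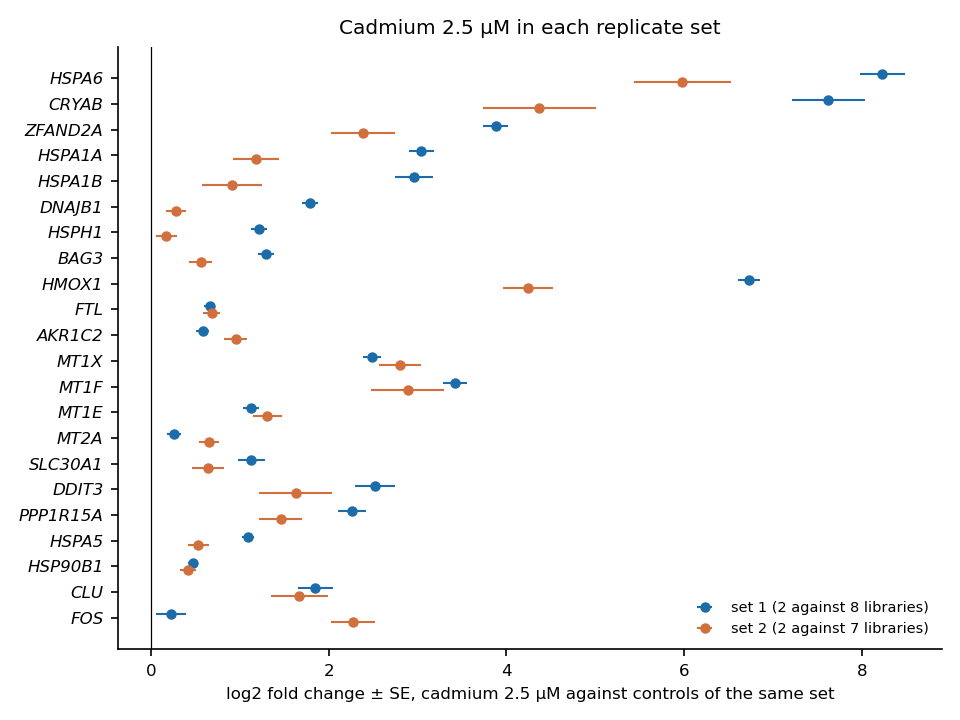
Log2 fold change with its standard error at cadmium 2.5 µM against the controls of the same set (horizontal axis) for 22 genes (rows), set 1 in blue and set 2 in orange. DNAJB1 and HSPH1 lie near 0 in set 2 (0.28 and 0.17) and at 1.79 and 1.22 in set 1, while FTL has nearly the same value in each (0.66 and 0.68).

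Cadmium at 2.5 µM was also set against cadmium at 0.025 µM, which needs no control library. A total of 33 genes were called (0.136%), 31 higher and 2 lower (0.00823%), and DESeq2 called 77 (59 higher, 18 lower). HSPA6 had a log2 difference of 7.80 ± 0.63, HMOX1 5.68 ± 0.42, ZFAND2A 3.56 ± 0.36, DDIT3 3.13 ± 0.43, MT1F 3.04 ± 0.31 and MT1X 2.24 ± 0.20, with adjusted p-values from 5.67e-21 to 1.38e-07. MT1E (0.88 ± 0.14), SLC30A1 (0.91 ± 0.18), HSPA5 (0.85 ± 0.12), FTL (0.72 ± 0.11) and AKR1C2 (0.77 ± 0.15) were called too. MT2A was not (0.23 ± 0.12, adjusted p = 1), nor was FOS (-0.42, adjusted p = 1). The 2 lower genes were DKK1, a secreted Wnt inhibitor (-0.58), and ADAM15, a metalloprotease (-0.36).

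Finally, cadmium was compared with mercury, copper and arsenic at the same dose of 2.5 µM, each with 4 libraries; lead, also on the plate, was not compared. Against mercury 47 genes were called (0.193%), 35 higher and 12 lower (0.0494%) under cadmium. Against copper 759 were called (3.12%), 393 higher (1.62%) and 366 lower (1.51%). Against arsenic 626 were called (2.58%), 329 higher (1.35%) and 297 lower (1.22%). These comparisons share the cadmium libraries, and the difference between their counts was not tested.

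MT1X, MT1F, MT1E, HSPA6, CRYAB and HMOX1 were higher under cadmium than under mercury, copper or arsenic. MT1X was at 516, 492, 101 and 172 CPM under cadmium, at 121, 95.4, 24.7 and 26.3 CPM under mercury, at 68.3, 91.4, 20.3 and 30.1 CPM under copper and at 102, 88.6, 52.3 and 20.6 CPM under arsenic. Cadmium's libraries were the highest in each set, and the log2 differences were 2.29 ± 0.17 from mercury, 2.55 ± 0.17 from copper and 2.26 ± 0.18 from arsenic. For MT1F they were 3.10 ± 0.25, 3.12 ± 0.23 and 3.42 ± 0.26, with adjusted p-values from 3.19e-21 to 4.28e-19. HSPA6 stayed at or below 4.41 CPM under mercury, copper and arsenic, and its log2 differences were 7.72 ± 0.46, 5.44 ± 0.32 and 6.36 ± 0.41. CRYAB had 7.91 ± 0.62, 6.70 ± 0.49 and 7.52 ± 0.63. HMOX1 was at 17.1, 11.2, 39.2 and 35.1 CPM under arsenic and at 4.1 to 7.84 CPM under mercury and copper, and the log2 differences were 5.20 ± 0.31 from mercury, 5.42 ± 0.30 from copper and 3.34 ± 0.27 from arsenic. SLC30A1 (0.77 ± 0.15, 0.99 ± 0.14 and 0.97 ± 0.16) and HSPA5 (0.72 ± 0.11, 0.55 ± 0.11 and 0.67 ± 0.11) were called higher under cadmium in all 3 comparisons. MT2A was called in none, with 0.08 ± 0.12, -0.15 ± 0.12 and -0.29 ± 0.12.

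A number of NRF2 targets were lower under cadmium than under copper or arsenic, and HMOX1 and ALDH3A1 were higher. Of 34 measured members 2 were higher and 13 lower against copper, beside 1.62% and 1.51% of all genes tested. Against arsenic 2 were higher and 15 lower, beside 1.35% and 1.22%. HMOX1 alone was called against mercury. FTL was at 2290, 2490, 1650 and 1920 CPM under cadmium and at 3440, 3700, 6010 and 3790 CPM under arsenic, which did not overlap, with a log2 difference of -1.06 ± 0.11 (adjusted p = 2.15e-13). FTH1 had -0.89 ± 0.10 (adjusted p = 1.37e-10). The FTL value of 6010 CPM was that of arsenic replicate 3. This library held 5.57 M counts, 9.45% of them mitochondrial, against 9.45 M and 7.15% in replicate 4. Leaving out replicate 3 of cadmium and of the other metals at 2.5 µM gave 236 calls against arsenic in place of 626. The call on FTL was kept in 13 of 13 alternatives and that on FTH1 in 12. AKR1C2 had -0.79 ± 0.14 against copper and -1.07 ± 0.14 against arsenic. ALDH3A1 was higher by 0.64 ± 0.16 than under copper and by 0.96 ± 0.17 than under arsenic.

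Other genes named by their p-values differed from 1 metal or another. AREG, an EGF receptor ligand, had -1.21 ± 0.13 against copper (adjusted p = 1.27e-11), and SH2D2A (-1.52), the anti-apoptotic gene MCL1 (-0.82) and the pseudogene CES1P1 (-1.30) were lower than under copper too. CCL20, a chemokine, had -1.97 ± 0.25 against arsenic. There 8 of 23 inflammatory cytokine genes were lower and none higher, beside 1.22% and 1.35% of all genes tested. FAM167A (-1.01), DKK1 (-0.59) and CCN1 (-0.95) were lower than under mercury. SELENOW, a selenoprotein, was higher by 1.84 ± 0.13 than under arsenic (adjusted p = 1.67e-22). Its level under cadmium, 124 to 151 CPM, lay within the control range of 76.4 to 163 CPM, and arsenic's libraries were at 29 to 56 CPM. Leaving out replicate 4 from cadmium and mercury gave 29 calls, none lower and 28 of them among the 47, and the calls on FAM167A, DKK1 and CCN1 were then lost.

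**Figure D5:**
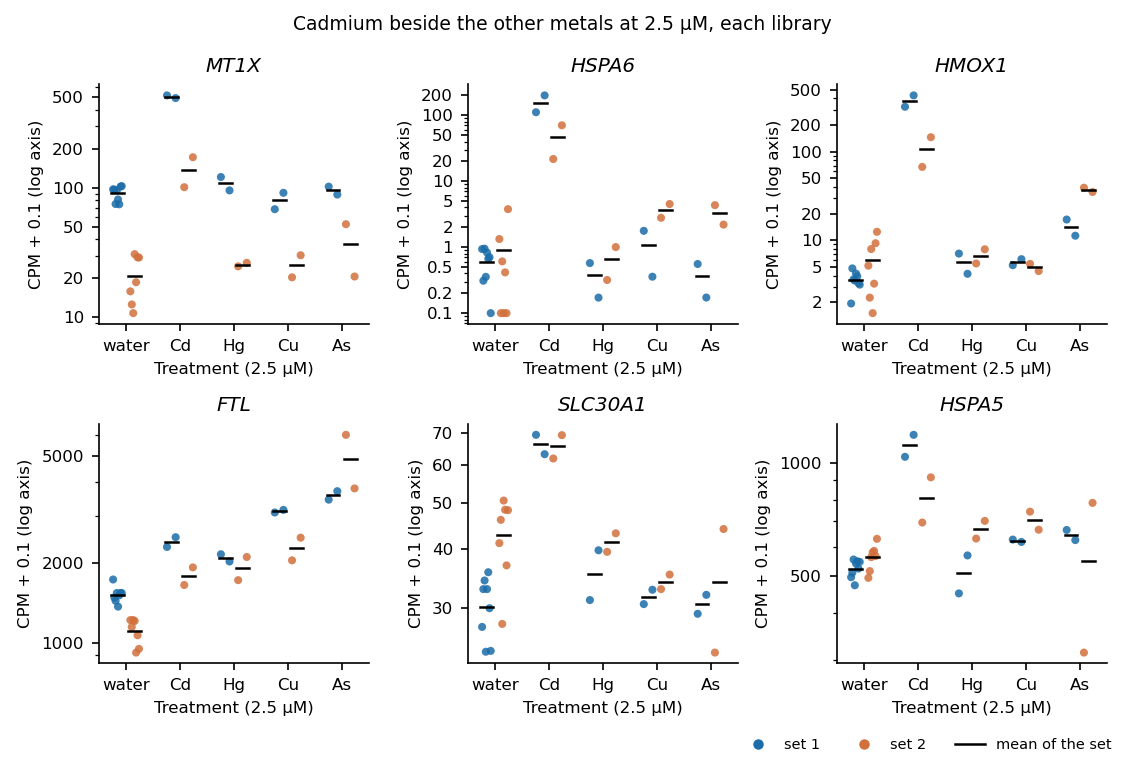
CPM plus 0.1 on a log axis for 6 genes in each library of the water controls and of cadmium (Cd), mercury (Hg), copper (Cu) and arsenic (As) at 2.5 µM; points are libraries, blue for set 1 and orange for set 2, and bars are the mean of a set. Cadmium is highest in MT1X, HSPA6, HMOX1, SLC30A1 and, in set 1, HSPA5, while FTL is highest under arsenic, at 3440 to 6010 CPM.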

How the data were processed

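RNA of MCF10A wells was sequenced by plexWell, a plate method with a barcode per well, per the labels' protocols. The authors deposited raw counts in 1 file for each library, with 34718 gene symbols; no values had been normalized, as judged from totals that differ between libraries. The submitters' processing notes name FastQC, MultiQC, STAR, featureCounts and GRCh38. Versions, annotation and strand handling were not given in the sources used here, so reads of overlapping or antisense genes cannot be told apart. No molecular identifiers are named, so counts are reads.

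All 93 libraries with the plate barcode of the metals were fitted together with edgeR 4.0.16 in R 4.3.3, with 1 mean per metal and dose and a term for the set, so that the spread was estimated over all groups. Low genes were removed by filterByExpr on the groups (a count of 10, a total of 15), TMM set the library scaling, and the quasi-likelihood test took its common dispersion from the 5% most abundant genes. CPM use the TMM-scaled library size, except the summed marker levels, which use the total count of a library. The fit was run on counts simulated from its own model, with a set effect shared by all groups. That run therefore cannot speak to effects that differ between the sets. The other 309 libraries were not used here. No 2 libraries were identical.

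The labels do not call the sets batches: controls 1 to 8 and 10 to 16 were joined to dosed replicates 1 to 2 and 3 to 4 by their numbers and by earlier results of these data. The members, gene lists and tests were chosen with earlier results of these data known. Genes are named by a rule: the 15 highest and 10 lowest log2 fold changes at 2.5 µM among called genes averaging 2 or more in log2 CPM and the same sign in both sets, up to 5 by p in each direction at the lower doses, up to 4 per direction for each other metal, all metallothioneins, SLC30A1, HMOX1 and HSPA1A, and up to 4 called members per list. The average in this rule is over all 93 fitted libraries, so a gene could pass through its level in groups not described here. Other genes were named after their values were seen. Some genes that the rule names are not reported here. Same-numbered libraries of different cadmium doses deviated together from their group means (correlations 0.15 to 0.30), but not once set means were removed (-0.04 to 0.02). With a replicate block in place of the set term, 38 genes were called between 2.5 and 0.025 µM, against 33. Alternatives used DESeq2 1.42.0, RLE scaling, no filter, other sets of libraries and leaving out replicates. Depth, given as total counts in the report, limits the precision, and set 2 controls are the shallowest. Intervals are standard errors worked back from the log2 fold change and its F statistic, with the spread estimated over all libraries of the fit.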

Additional observations from a re-analysis of the deposited data

Results flagged for a closer look

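Some values stood apart from the other libraries of their dose, as judged by the gap to the nearest library relative to the range of the 4. CRYAB was at 3.07 CPM in replicate 1 at 0.025 µM (median of the others 0), RRAD at 3.35 CPM in replicate 2 at 0.025 µM (median of the others 0.392) and LINC00520 at 1.49 CPM in replicate 2 at 0.25 µM (0.11). TM9SF1 was at 13.2 CPM in replicate 3 (6.46) and USP43 at 1.16 CPM in replicate 1 (5.8), both at 0.25 µM, and S100A7 was at 9.46 CPM in replicate 1 at 2.5 µM (0). A rate of about 1 in 20 such groups marked by chance was taken as given and not estimated from these data. The 4 libraries of a dose came from 2 sets, so that rate may not hold here. CRYAB, RRAD, LINC00520 and S100A7 were scarce in these libraries.

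Among named genes, the effect of 2.5 µM differed between the replicate sets by the test of that difference. As the log2 fold change in set 2 minus that in set 1, it was -2.48 for HMOX1 (adjusted p = 0.00146), -1.86 for HSPA1A, -2.05 for HSPA1B (adjusted p = 0.00413), -1.51 for DNAJB1 and 2.06 for FOS.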

How the results depend on the processing

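Counts of calls moved with the fit. At 0.025 µM 3 genes became 0 without the set term, 51 in set 1 alone, 24 in set 2 alone, 6 with only the compared groups, 106 with DESeq2, 19 without a filter, 9 against controls 10 to 16, and 0 to 6 without 1 replicate. Against controls 1 to 8 it was 4, all lower, with 0 of the 3 among them. At 0.25 µM 3 became 1, 11, 17, 7, 22, 11 and 13 in the same order, 5 without the groups at 25 µM, 1 against controls 1 to 8, and 1 to 3 without 1 replicate. At 2.5 µM 136 became 57 without the set term, 443 (165 higher, 278 lower) and 41 (39 higher, 2 lower) in the sets alone, 256 without a filter (129 higher, 127 lower), 70 against controls 10 to 16 (all higher), 94 against controls 1 to 8 (49 higher, 45 lower), and 57 to 167 without 1 replicate. Without the groups at 25 µM it was 180 (90 higher, 90 lower). Against the other metals at 0.025 µM, chosen after seeing the data, it was 248, with 109 of the 136 among them. Between 2.5 and 0.025 µM 33 became 18 without the set term, 73 and 11 in the sets, 77 with DESeq2, 52 without a filter, and 20 to 30 without 1 replicate.

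Against mercury 47 became 23 without the set term, 28 in set 2, 154 without a filter, and 29 to 87 without 1 replicate. Against copper 759 became 193, 233 in set 2, 1231 with only the compared groups, and 344 to 597. Against arsenic 626 became 185, 166 in set 1, 278 with only the compared groups, 1100 with DESeq2, and 236 to 729. The difference between sets went from 93 to 169 with DESeq2 (112 higher, 57 lower) and 179 without a filter. The cause of these moves was not tested, and sets alone and replicates left out use fewer libraries.

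With a replicate block in place of the set term, which keeps controls 1 to 4, all of set 1, calls against controls were 176 (51 higher, 125 lower), 131 (26 higher, 105 lower) and 723 (266 higher, 457 lower) in order of dose. Cadmium libraries and same-numbered controls shared only a number: correlations of their deviations ran from 0.01 to 0.17, with 3 of 12 over 0.1 and 6 of 12 highest with their own number. Between doses and metals the block moved no count by over 1.5 times (38, 58, 780 and 662). MT2A at 2.5 µM, 0.42 on the log2 scale, turned to -0.24 with the block (adjusted p = 0.21) and -0.12 against controls 1 to 8. Of 76 named results no other reversed, signs being compared only where either fit made a call. Of the 76, 50 kept their call or lack of one without the set term, 76 with RLE scaling, 66 with DESeq2 and 63 with the block, and 57, 59, 71 and 54 without replicates 1 to 4. It was 62 of 74 in set 1, 45 of 72 in set 2, and, of 52 set against controls, 30 with controls 1 to 8, 29 with controls 10 to 16 and 42 against the other metals at 0.025 µM. Depth limits scarce genes in set 2 most.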

Other observations

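Among the 22 genes called higher in both sets at 2.5 µM, 3 outside the gene lists and the naming rule code for proteins of other roles; they were chosen after their values were seen. CLU, a secreted chaperone, was at 60.7, 61.2, 21.5 and 37.3 CPM, above the controls of each set (9.63 to 23.1 and 3.67 to 16.6 CPM), with a log2 fold change of 1.82 ± 0.19 (adjusted p = 3.73e-13). SAT1, the enzyme that acetylates spermidine and spermine, was at 416, 380, 141 and 205 CPM against 255 to 309 and 73.5 to 125 CPM (0.53 ± 0.12, adjusted p = 0.00722). KRT17, a basal keratin, was at 675, 599, 676 and 814 CPM against 368 to 470 and 374 to 554 CPM (0.62 ± 0.15, adjusted p = 0.028), and was the 1 called gene of the 8 basal markers.

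The pseudogene MT1L was called higher in both sets too, at 99.8, 103, 31.8 and 37.5 CPM against 45.5 to 56.4 and 7.76 to 25.2 CPM in the controls, and reads of the metallothionein genes can fall on it.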
